A study of Mus musculus with 6 samples.

Results

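ATP-driven ion pumps and lipid flippases are described here as they were transcribed in sorted mouse cone photoreceptors, the daylight receptors of the retina. Members were chosen by gene name and not by any measured value: genes whose symbols begin with Atp1a, Atp1b, Atp2a, Atp2b, Atp2c, Atp6, Atp7, Atp8, Atp9, Atp10, Atp11 or Atp13, without the mitochondrial ATP synthase. The rule found 37 of the 9720 protein-coding genes measured, of which 17 belong to the vacuolar proton pump (V-ATPase) and 20 to the P-type pumps. Knockout cones came from HRGPcre;Bmal1f/f;Z/EG mice, in which both copies of the clock gene Bmal1 were floxed, and control cones from HRGPcre;Bmal1f/+;Z/EG mice with 1 floxed copy, with 3 libraries in each group. Controls carried the Cre transgene and the reporter too, so a recombined control cone is heterozygous although the series text calls it wild type. As background, HRGPcre places Cre under promoter sequences of a cone opsin gene, and Z/EG turns on eGFP after Cre has acted, so the sort took cells by past recombination. Mice were adult (labelled as postnatal day 60 to 80 and also as 2 to 6 months), of C57BL/6 strain with mixed background, and lived under equal periods of light and dark. Whether each library was 1 animal or a pool is not labelled, so p-values measure the spread between these libraries, which may be technical in part, and the hour of collection was not used here.

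P-type pumps form a phosphorylated intermediate as they split ATP and in this way move Na+, K+, Ca2+ or copper, or turn phospholipids from one leaflet of a membrane to the other. The V-ATPase works as a rotary motor: its cytosolic V1 sector splits ATP and turns a ring in its membrane V0 sector, which carries protons into lysosomes, endosomes and synaptic vesicles. In photoreceptors the Na,K-ATPase of the inner segment drives the dark current, plasma membrane Ca2+ pumps clear Ca2+ from the terminal, proton pumps power glutamate loading of vesicles, and flippases keep phosphatidylserine on the cytosolic side of disc and plasma membranes.

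Values were FPKM, the fragments sequenced per kilobase of a gene's transcript after scaling for library size, so that levels may be compared between genes. Library depth is unknown, because FPKM keep no read totals and the low values showed no common step from which reads could be recovered. All 9 cone markers had values, and their summed level ran from 5338 to 6428 FPKM in knockout and from 3890 to 6692 FPKM in control libraries. Within that sum the genes lay on different sides, none of these 3 past the threshold: Opn1sw, the short-wavelength opsin gene, read 1774 to 2091 FPKM in knockouts and 735 to 1202 FPKM in controls without overlap (log2 difference 1.01 ± 0.32 (SE), adjusted p = 0.65, limma), whereas the means of Opn1mw (745 FPKM in knockout, 1092 FPKM in control) and Pde6h (212 FPKM in knockout, 327 FPKM in control) were lower in knockouts. The 10 rod markers were chosen to represent another photoreceptor in the sort, and whether cones express some of them was not tested. They also all had values and summed to 2266 to 3332 FPKM in knockout and 2806 to 3415 FPKM in control libraries. Of the 8627 genes that averaged 1 FPKM or more, 9.39% had no overlap between knockout and control values, in either direction. Within the rod sum, Nr2e3 (6.52 to 10.5 FPKM in knockout, 5.39 to 6.402 FPKM in control) was higher in knockouts without overlap. The same held for Cnga1 (17.03 to 19.7 FPKM in knockout, 13.2 to 16.995 FPKM in control), and the other rod markers overlapped. Sums were far lower for 5 of 7 Müller glia markers (97.5 to 108 FPKM in knockout, 88.2 to 116 FPKM in control) and 6 of 7 bipolar markers (50.8 to 57.2 FPKM in knockout, 45.1 to 65.3 FPKM in control). Within these sums 2 glial genes were lower in knockouts without overlap. They were Clu (15.4 to 21.1 FPKM in knockout, 24.8 to 27.1 FPKM in control) and Apoe (1.78 to 3.002 FPKM in knockout, 3.697 to 4.64 FPKM in control). The bipolar gene Gng13 was lower as well (1.17 to 2.16 FPKM in knockout, 2.96 to 6.31 FPKM in control). The other glial and bipolar markers measured overlapped. The 1 measured vascular marker of 2 (Pecam1, 1.23 to 1.302 FPKM in knockout, 0.593 to 0.812 FPKM in control) and the 1 measured red blood cell marker of 3 (Alas2, 3.06 to 5.29 FPKM in knockout, 1.48 to 2.93 FPKM in control) were higher in knockouts without overlap. Values of 1 amacrine marker of 5 (4.04 to 6.53 FPKM in knockout, 4.58 to 8.29 FPKM in control) and 1 microglia marker of 4 (0.1 to 0.275 FPKM in knockout, 0.1 to 1.47 FPKM in control) overlapped. For horizontal cells and pigment epithelium no marker had a value here. Of 6 ganglion cell markers 3 had values, which summed to 2.07 to 2.32 FPKM in knockouts and 2.63 to 23.9 FPKM in controls. These sums did not overlap, but Stmn2, Rbpms and Nefl each overlapped when taken singly. Stmn2 alone read 21.1 FPKM in control 1. The highest ganglion sum was that of control 1, which also correlated least with the other libraries over tested genes (Pearson r 0.879 to 0.913, against 0.930 to 0.966 among the other 5). In control 3 the gene model Gm17364 took 10.03% of the FPKM sum, against 2.35% to 2.88% in knockouts 1 to 3 and control 2. In control 1 the top gene was another, Gm11032, at 1.49%. The FPKM sum was lowest in control 1 (84995) and highest in control 3 (128773). Since these are bulk samples, fewer cells of a type and less RNA per cell cannot be told apart, and the part of RNA from rods or other cells in the levels below was not tested. The deleted gene itself, Bmal1 (listed as Arntl), read 3.37, 2.28 and 3.48 FPKM in knockouts 1, 2 and 3, against 2.9998, 2.596 and 3.27 FPKM in controls 1, 2 and 3 (log2 difference 0.022 ± 0.22 (SE), adjusted p = 0.9996, limma). Its value over the whole gene therefore did not follow the labels; such a value also counts fragments from exons outside the floxed part, and the floxed exon alone was not measured. Nr1d1, a clock repressor gene driven by BMAL1, did differ with the labels and read 2.87, 4.62 and 4.91 FPKM in knockouts 1, 2 and 3, against 38.3, 47.1 and 56.3 FPKM in controls 1, 2 and 3 (log2 difference -3.24 ± 0.25 (SE), adjusted p = 0.00013, limma).

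BMAL1 acts with CLOCK on E-box elements, so the promoter windows of the members were read for the E-box letters CACGTG. Windows came from RefSeq (GRCm38.p6) and ran from 250 bases before to 50 after each start site. Of the 37 members, 25 had an entry, and 7 of these 25 (28%) held the letters in at least 1 window, against 12.2% of the 7469 genes of the table with an entry and 8.09% of all 27025 genes with one. The letters read the same on both strands. V-ATPase genes held 4 of the 7, namely Atp6v0b, Atp6v0d1, Atp6v0e and Atp6v1a, and the other 3 were Atp1b3, Atp2b1 and Atp7a. The CLEAR element, which is the same E-box with GT before it and AC after it and so overlaps it, was found in 1 member, Atp2b1, and in 0.92% of the genes of the table. The stretches below, 60 bases each, are read in the direction of the gene. They are shown because they hold an E-box before the start site of a V-ATPase or copper pump gene, and capitals mark the E-box.
Atp6v0b: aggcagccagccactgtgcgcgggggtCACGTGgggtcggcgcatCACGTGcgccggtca
Atp6v1a: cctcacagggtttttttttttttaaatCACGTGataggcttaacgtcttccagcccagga
Atp7a: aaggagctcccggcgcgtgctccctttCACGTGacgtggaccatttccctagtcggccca
The Atp6v0b stretch lies at chr4:117887333-117887392 on the minus strand and holds 2 E-boxes, which begin 36 and 18 bases before the start site. The Atp6v1a stretch lies at chr16:44139358-44139417 on the minus strand, 131 bases before a RefSeq start site and in an intron of 2 GENCODE transcripts that start farther upstream. The Atp7a stretch lies at chrX:106027110-106027169 on the plus strand, with its E-box 87 bases before the start site. A match describes letters in a window and does not show a bound site.

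No pump or flippase gene changed past the threshold between knockout and control cones. The test used limma on log2(FPKM + 1) for the 8627 genes that averaged 1 FPKM or more, and 9 passed an adjusted p of 0.05, which is 0.104% of them. Of the 37 members 34 were tested and 0 passed; 0 also reached an unadjusted p under 0.05, against 5.49% of all tested genes. Knockout and control values did not overlap for 1 of the 34 (Atp6v1f), against 9.39% of all tested genes. All 34 intervals of the difference held 0. They reached 0.46 to 0.86 to either side of the estimate, with a median of 0.54, on the log2 scale. These intervals were not adjusted for the number of genes, so passing the threshold took a larger difference than they imply. Bsg, a pump partner gene described below, differed by -0.90 ± 0.32 (SE) and did not pass (adjusted p = 0.77, limma). Differences smaller than these widths, and some larger ones, could not be shown with 3 libraries a group. Negative differences outnumbered positive ones by 23 to 11, with a median of -0.088, against a median of -0.016 over all tested genes, of which 52.6% were negative.

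**Figure D1:**
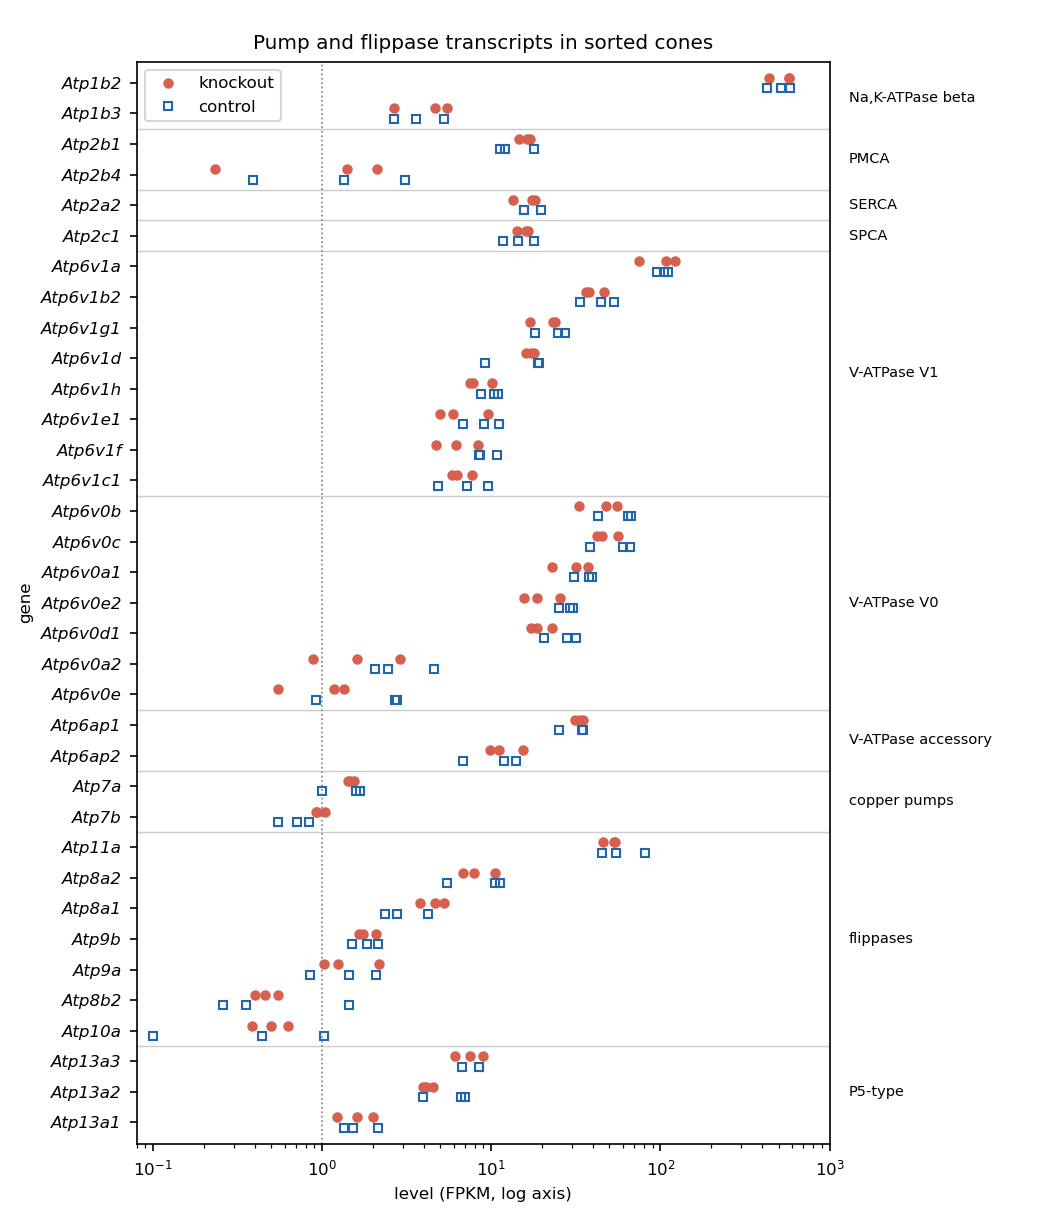
Level of 35 of the 37 members in each library in FPKM on a log axis, knockout as filled circles above control as open squares, with genes grouped by role and the dotted line at 1 FPKM. Atp1b2 stands at the top, 3 members lie below 1 FPKM on average, and knockout and control points overlap for all but Atp6v1f and Atp7b.

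Among the Na,K-ATPase genes described here, transcripts of the beta subunits came almost wholly from 1 gene. Atp1b2, which encodes the beta2 subunit that carries the pump to the membrane, ranked 14 among the 9720 genes by mean level. It read 438, 576 and 577 FPKM in knockouts 1, 2 and 3, against 430, 513 and 585 FPKM in controls 1, 2 and 3. The groups overlapped over nearly their whole range, and the log2 difference was 0.059 ± 0.29 (SE; 95% interval -0.57 to 0.68). Within the beta family, Atp1b2 held 99.2% ± 0.32 in knockout and 99.2% ± 0.38 in control cones (SD, n = 3 each). Atp1b3, the beta3 subunit gene, read 4.68, 5.50 and 2.65 FPKM in knockouts and 5.30, 2.65 and 3.59 FPKM in controls, with no order between the groups (log2 difference 0.12 ± 0.28).

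**Figure D2:**
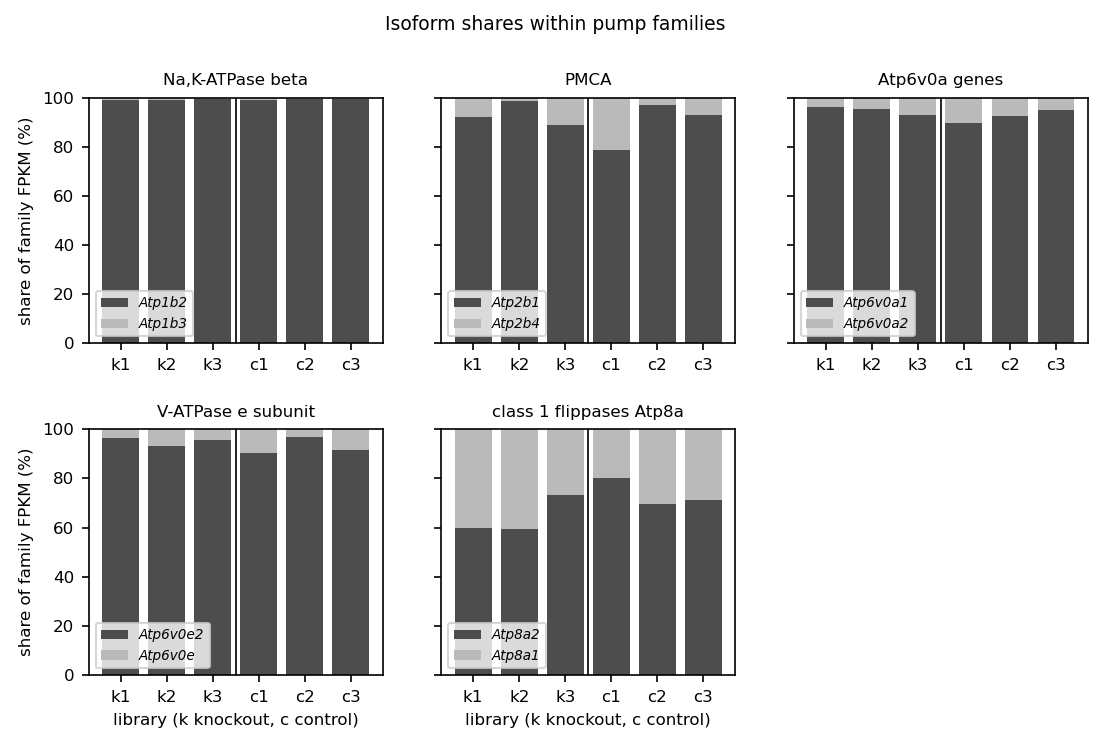
Share of each isoform in the summed FPKM of its family, in percent, for 5 families with 2 members (the a subunit gene Tcirg1 is not among them); each bar is a library, with knockouts (k1 to k3) left of controls (c1 to c3). Atp1b2 holds over 98% in all 6 libraries, whereas Atp8a2 holds 59.6% to 80.2%.

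Ca2+ pumps of the plasma membrane, the endoplasmic reticulum and the Golgi were transcribed at similar levels, and the leading gene of each lay between 10 and 20 FPKM in every library. Atp2b1, which encodes the plasma membrane pump PMCA1, read 16.4, 14.6 and 17.03 FPKM in knockouts, against 11.3, 12.02 and 18.02 FPKM in controls. Controls 1 and 2 lay below the knockouts and control 3 above them, and the log2 difference was 0.22 ± 0.24 (adjusted p = 0.99, limma). Atp2b4, the PMCA4 gene, held the rest of that family and varied widely in both groups, from 0.232 to 2.11 FPKM in knockouts and from 0.390 to 3.10 FPKM in controls. Its share of the family was highest in control 1, at 21.5%, and lowest in knockout 2, at 1.57%. Atp2a2, which encodes the endoplasmic reticulum pump SERCA2, read 17.4, 13.4 and 18.2 FPKM in knockouts, against 15.7, 15.6 and 19.7 FPKM in controls (log2 difference -0.055 ± 0.23). Atp2c1, which encodes a Golgi pump for Ca2+ and Mn2+, read 16.6, 14.3 and 16.04 FPKM in knockouts, against 14.5, 11.8 and 18.02 FPKM in controls (log2 difference 0.094 ± 0.23). Control values enclosed the knockout values for Atp2c1, and the groups overlapped for Atp2a2 as well. Exons of Atp2c1 overlap those of Aste1 on the opposite strand by 1837 bp, and no source used here states the use of strand in counting.

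The V-ATPase held 17 members, which made up 34.003% ± 0.54 of the members' summed FPKM in knockout and 36.1% ± 2.104 in control cones (SD, n = 3 each). In the core sectors 14 of 15 genes had a negative log2 difference, 7 of 8 in V1 and 7 of 7 in V0, whereas both accessory genes had a positive one, and none of the 17 passed. The median difference was -0.11 for V1, -0.42 for V0 and 0.13 for the accessory genes, against -0.016 over all tested genes. The most negative V0 genes were low ones. Atp6v0e averaged 1.58 FPKM over the 6 libraries and differed by -0.59 ± 0.29 (SE). Atp6v0a2 averaged 2.41 FPKM and differed by -0.54 ± 0.30. Exons of Atp6v0a2 overlap those of an antisense gene by 663 bp, and exons of Atp6v0b those of another by 243 bp. As for Atp2c1, the use of strand in counting is not known. With only genes that averaged 5 FPKM or more, the V0 median was -0.35. Low values of the 17 V-ATPase genes fell together in some libraries: knockout 1 was the lowest knockout for 11 of the 17 and control 1 the lowest control for 14 of the 17. Over all 37 members, knockout 1 was the lowest knockout for 21 and control 1 the lowest control for 22. Such shares were not counted over all tested genes, but control 1 was low there as well. Its median deviation from the control mean, in log2(FPKM + 1), was -0.16 over all tested genes and -0.32 over the V-ATPase. For knockout 1 these medians were -0.038 and -0.47, and for control 3 they were 0.18 and 0.16. The V0 genes tested were all negative in each of the 16 alternative settings, of which the filter of 5 FPKM left 5 of the 7. Changing the filter, dropping the variance trend or adding a block for the replicate number leaves each difference as it was. Those settings could therefore not change a sign, and all settings draw on the same libraries. For V1 the count ran from 5 of 8 without control 3 to 8 of 8 without control 1 or with array weights, and both accessory genes turned negative without control 1 and with array weights. Of all tested genes, 40.3% were negative without control 3, 64.8% without control 1 and 55.2% with array weights. Rescaling the libraries, in each of 3 ways, kept 7 of 8 in V1 and 7 of 7 in V0.

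In V1, the sector that splits ATP, the catalytic A subunit gene Atp6v1a was the most abundant and ranked 99 among all genes. It read 74.8, 122 and 109 FPKM in knockouts, against 95.9, 111 and 105 FPKM in controls, so that the knockouts lay on both sides of the controls (log2 difference -0.058 ± 0.26). Atp6v1b2, the B2 subunit gene and partner of A in the ATP-binding head, averaged 40.2 ± 5.47 FPKM in knockout and 43.8 ± 10.07 FPKM in control cones (SD, n = 3 each). Atp6v1a stood 1.96 to 3.22 times above Atp6v1b2 in the 6 libraries. Levels then stepped down through the stalk gene Atp6v1g1 (21.4 ± 3.89 FPKM in knockout, 23.4 ± 4.64 FPKM in control) and the rotor gene Atp6v1d (17.006 ± 0.95 FPKM in knockout, 15.7 ± 5.67 FPKM in control). Atp6v1d was the single V1 gene with a positive difference, 0.17, and control 1 was its lowest library at 9.21 FPKM, against 16.0 to 17.8 FPKM in knockouts and 18.8 to 19.2 FPKM in the other controls. The regulatory subunit gene Atp6v1h, the stalk gene Atp6v1e1 and Atp6v1c1, which links the stalks, had means between 6.602 and 8.46 FPKM in knockout and between 7.18 and 10.04 FPKM in control cones.

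Atp6v1f, which encodes the rotor subunit F, was the tested member whose groups did not overlap. It read 6.22, 4.72 and 8.40 FPKM in knockouts, against 8.43, 10.8 and 8.59 FPKM in controls. The gap between the groups was narrow, between 8.40 FPKM in knockout 3 and 8.43 FPKM in control 1. Its log2 difference was -0.49 ± 0.24 (SE; 95% interval -1.009 to 0.034, adjusted p = 0.897, limma).

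In V0, the membrane sector, the proton ring genes were the most abundant. Atp6v0b, whose promoter window holds the 2 E-boxes printed above, read 33.1, 55.7 and 47.4 FPKM in knockouts, against 42.8, 66.9 and 64.6 FPKM in controls (log2 difference -0.35 ± 0.28). Control 1 lay among the knockouts and the other controls lay above them. Atp6v0c, the other ring gene, averaged 47.8 ± 7.35 FPKM in knockout and 54.9 ± 14.7 FPKM in control cones (SD, n = 3 each), and the order of the 2 ring genes changed between libraries. The annotation holds 2 pseudogenes of Atp6v0c, on chromosomes 6 and 7, which could share its reads.

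The a and e subunits of V0, which have several isoforms, were each led by 1 gene. Of the 3 measured genes of the a subunit, which forms the proton path, Atp6v0a1 (the form of synaptic vesicles) held 90.2% ± 2.09 of the FPKM in knockout and 87.01% ± 3.06 in control cones (SD, n = 3 each). Atp6v0a2, a Golgi form, held 5.003% ± 1.66 in knockout and 7.21% ± 2.47 in control cones, and Tcirg1, which encodes the a3 form and is named apart from the Atp6 series, held 4.77% ± 0.45 in knockout and 5.79% ± 0.90 in control cones. Atp6v0a1 read 22.8, 31.7 and 37.4 FPKM in knockouts, against 39.2, 30.7 and 38.04 FPKM in controls. Of the e subunits, Atp6v0e2 held 95.2% ± 1.68 in knockout and 92.97% ± 3.52 in control cones, and the remainder was Atp6v0e. Atp6v0e2 had the smallest p of all members: it read 15.6, 18.8 and 25.4 FPKM in knockouts, against 25.1, 29.2 and 30.6 FPKM in controls. Its groups met between 25.1 and 25.4 FPKM, and the log2 difference was -0.51 ± 0.24 (SE; 95% interval -1.03 to 0.016, adjusted p = 0.897, limma). Atp6v0d1, which couples the rotor to the ring, averaged 19.6 ± 2.997 FPKM in knockout and 26.8 ± 5.66 FPKM in control cones (log2 difference -0.42 ± 0.24).

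The summed V0 level was 0.763, 0.757 and 0.865 times the summed V1 level in knockouts, against 0.934, 0.907 and 0.981 times in controls. The ranges did not overlap; this ratio was formed after the values were seen and was not tested. The accessory gene Atp6ap1, which encodes the assembly factor Ac45, read 31.2, 34.7 and 33.5 FPKM in knockouts, against 25.1, 34.4 and 34.9 FPKM in controls (log2 difference 0.088 ± 0.23). Atp6ap2, the prorenin receptor gene, read 15.4, 9.85 and 11.05 FPKM in knockouts, against 6.84, 11.9 and 14.1 FPKM in controls (log2 difference 0.16 ± 0.28). For both accessory genes control 1 was the lowest of the 6 libraries and the remaining values of the groups overlapped.

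**Figure D3:**
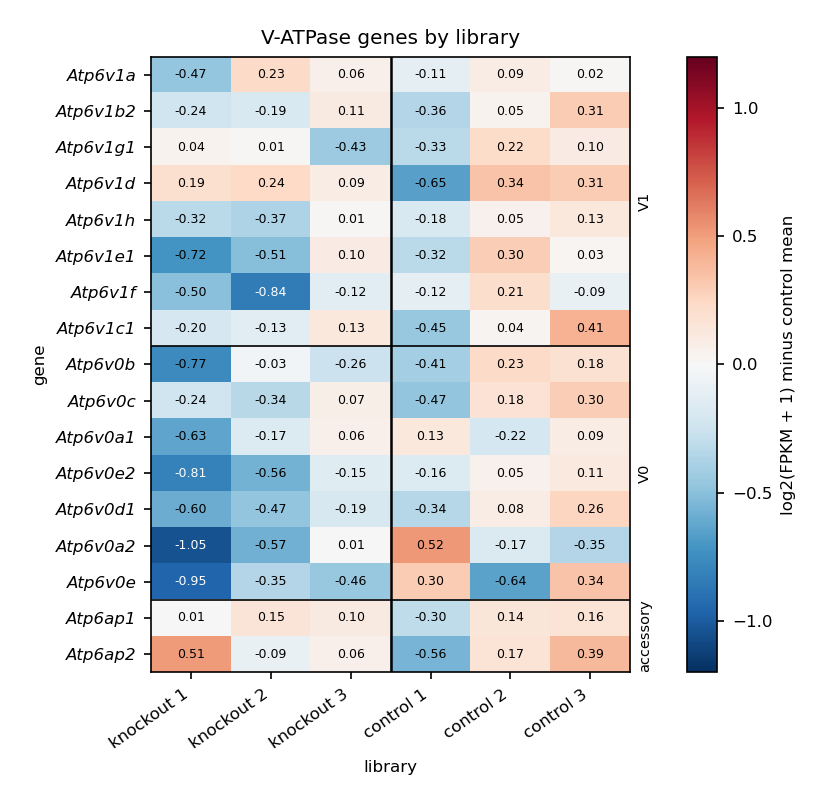
Deviation of each of the 17 V-ATPase genes from its control mean, in log2(FPKM + 1), for knockouts 1 to 3 (left) and controls 1 to 3 (right), with V1, V0 and accessory genes from top to bottom. Knockout 1 is low for most V0 genes, down to -1.05 for Atp6v0a2, and control 1 is low within the controls for most V1 genes, down to -0.65 for Atp6v1d.

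Flippase transcripts were dominated by Atp11a, which encodes a plasma membrane flippase for phosphatidylserine and phosphatidylethanolamine. Atp11a read 53.5, 45.6 and 53.7 FPKM in knockouts, against 55.03, 45.1 and 81.4 FPKM in controls, and made up 74.7% ± 0.94 of the FPKM of the 7 flippases in knockout and 78.3% ± 2.89 in control cones (SD, n = 3 each). Control 3 stood above the other 5 libraries, and the log2 difference was -0.21 ± 0.26 (adjusted p = 0.9996, limma). Atp8a2, which encodes the phosphatidylserine flippase of photoreceptor discs, was lower, at 7.87, 6.84 and 10.5 FPKM in knockouts and 11.3, 5.44 and 10.5 FPKM in controls. Its log2 difference was -0.067 ± 0.28, and exons of Atp8a2 overlap a pseudogene on the opposite strand by 2073 bp and Nupl1 on the same strand by 241 bp. Tmem30a, which encodes the partner subunit that most flippases need to leave the endoplasmic reticulum, read 12.5, 12.2 and 11.2 FPKM in knockouts, against 9.25, 9.16 and 11.9 FPKM in controls (log2 difference 0.24 ± 0.21).

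Atp8a1, a paralog of Atp8a2 found on vesicles and endosomes, had the highest positive difference among the members. It read 5.28, 4.64 and 3.81 FPKM in knockouts, against 2.79, 2.36 and 4.23 FPKM in controls. Control 3 lay within the knockout range and the other controls below it, and the log2 difference was 0.45 ± 0.23 (SE; 95% interval -0.059 to 0.96, adjusted p = 0.902, limma). The share of Atp8a1 in the Atp8a pair was 40.2%, 40.4% and 26.7% in knockouts and 19.8%, 30.3% and 28.6% in controls. Atp9a and Atp9b, which encode flippases of endosomes and the trans-Golgi that work without Tmem30a, averaged 1.48 ± 0.61 and 1.83 ± 0.22 FPKM in knockout and 1.46 ± 0.62 and 1.82 ± 0.32 FPKM in control cones (SD, n = 3 each). Atp8b2 and Atp10a averaged under 1 FPKM and so fell to the filter; with no filter their log2 differences were -0.13 ± 0.29 and 0.024 ± 0.27 (adjusted p = 0.995 and 0.999, limma).

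Both copper pump genes were low, with means under 1.5 FPKM in each group. Atp7a, which moves copper into the Golgi and out of the cell, read 1.42, 1.55 and 1.46 FPKM in knockouts, against 1.68, 0.994 and 1.60 FPKM in controls (log2 difference 0.043 ± 0.21). Atp7b, the gene of Wilson disease, lay just below the filter of 1 FPKM, at 0.920, 0.935 and 1.05 FPKM in knockouts and 0.546, 0.836 and 0.709 FPKM in controls. Its groups did not overlap, and with no filter on low values its log2 difference was 0.22 ± 0.22 (adjusted p = 0.96, limma). Of the P5-type pumps, Atp13a3, a polyamine transporter gene, read 6.10, 7.51 and 8.90 FPKM in knockouts, against 8.45, 6.70 and 8.44 FPKM in controls, with full overlap. Atp13a2, which exports polyamines from lysosomes, read 3.97, 4.11 and 4.55 FPKM in knockouts, against 3.93, 7.01 and 6.67 FPKM in controls (log2 difference -0.37 ± 0.24, adjusted p = 0.93, limma). Control 1 was the lowest of the 6 libraries for Atp13a2 and the other controls the highest. Atp13a1, which removes misplaced membrane proteins from the endoplasmic reticulum, averaged 1.62 ± 0.39 FPKM in knockout and 1.67 ± 0.42 FPKM in control cones (SD, n = 3 each).

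**Figure D4:**
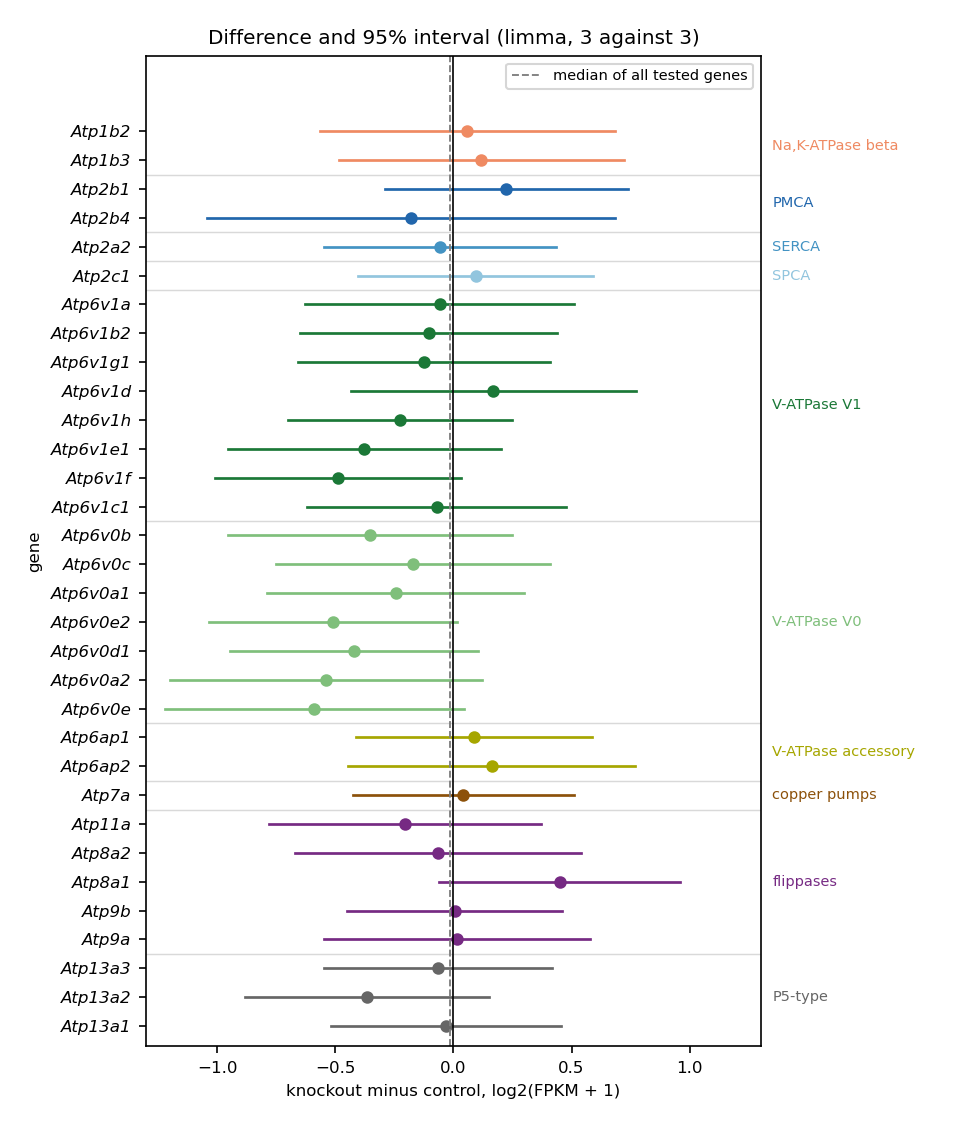
Difference between knockout and control in log2(FPKM + 1) for 32 of the 34 tested members (points, with 95% intervals from limma), by role, with the dashed line at the median of all tested genes, -0.016. All intervals shown cross 0, V0 genes lie left of 0, and Atp8a1 lies farthest right at 0.45.

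No gene on a list of pump partners and regulators passed either. Of its 51 genes 33 had values, 31 were tested and 0 passed in limma, with 14 positive and 17 negative differences and a median of -0.035. Groups did not overlap for 3 of the 31, against 9.39% of all tested genes: Bsg and Rnasek were lower and Dmxl1 higher in knockouts. Rnasek, which encodes a small protein bound to V0, read 18.5, 16.7 and 30.2 FPKM in knockouts, against 37.3, 39.5 and 31.5 FPKM in controls (log2 difference -0.74 ± 0.26, unadjusted p = 0.015, adjusted p = 0.76, limma). Bsg, whose product basigin escorts lactate transporters and Ca2+ pumps, read 40.7, 73.01 and 87.3 FPKM in knockouts, against 88.0, 136 and 143 FPKM in controls (log2 difference -0.90 ± 0.32, unadjusted p = 0.016, adjusted p = 0.77, limma). Dmxl1, a gene of the complex that reassembles V1 on V0, averaged 6.92 ± 0.33 FPKM in knockout and 5.80 ± 0.67 FPKM in control cones (SD, n = 3 each). Nptn, a partner of plasma membrane Ca2+ pumps, averaged 33.2 ± 11.02 FPKM in knockout and 38.3 ± 5.998 FPKM in control cones (SD, n = 3 each). Tcirg1, the a3 subunit gene, averaged 1.65 ± 0.57 FPKM in knockout and 2.38 ± 0.37 FPKM in control cones. Tmem9, a proton pump regulator gene, averaged 17.7 ± 4.13 FPKM in knockout and 26.1 ± 5.10 FPKM in control cones, with an unadjusted p of 0.052 in limma.

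Positions on GRCm38 for the members described most fully are as follows. Atp1b2 lies on chromosome 11 from 69599736 to 69605942. Atp6v1f lies on chromosome 6 from 29467718 to 29470512 and Atp6v0e2 on the same chromosome from 48537615 to 48541801. Atp6v1a lies on chromosome 16 from 44085402 to 44139705 and Atp6v0b on chromosome 4 from 117884326 to 117887333. Atp8a1 lies on chromosome 5 from 67618140 to 67847434 and Atp11a on chromosome 8 from 12757014 to 12868728.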

How the data were processed

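RNA was measured by poly(A) sequencing of sorted cones, 3 knockout and 3 control libraries. The authors deposited a single table of FPKM with a column for each library. Tools named in the submitters' processing notes are TopHat2 2.1.0, Cufflinks 2.2.1, HTSeq and DESeq2, with build mm10; their roles, the annotation and the use of strand were not given in the sources used. Every gene listed exceeds 1 FPKM in at least 1 library and no value lies under 0.1 FPKM, a floor met in 389 genes. Groups came from the genotype labels. Members and lists were chosen with earlier results of these data known.

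FPKM were transformed as log2(FPKM + 1), which understates differences of low genes. Genes averaging 1 FPKM or more were kept (8627). Knockout was compared with control in limma 3.58.1 under R 4.3.3 by lmFit and eBayes (variance trend on, two-sided). Benjamini-Hochberg adjustment covered every tested gene, at 0.05. The fit was tested on simulated data, with shifts larger than the difference of any tested member. Power for differences as small as those of the members was therefore not measured. Values in every library are given for members past the threshold, the most abundant and the smallest p of each role group, and those without overlap between groups; further members, the level ratios and the V0 to V1 ratio were chosen after values were seen. Values of some genes are counted in totals but not reported here. Lists and shares are described without a test. Positions are from GENCODE vM21 (GRCm38, the assembly of mm10), in which 37 of 37 member IDs were found. Alternatives were a pseudocount of 0.1 or 0.5, no filter or one of 5 FPKM, 3 scalings, no variance trend, array weights, a block for the replicate number, and leaving out libraries one at a time. Tables and figures were made in Python 3.11.15 with matplotlib 3.10.9, numpy 2.4.6 and pandas 2.3.3.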

Additional observations from a re-analysis of the deposited data

How the results depend on the processing

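No member passed in any of the 16 alternative settings, in which the smallest adjusted p of a member was 0.30 (limma with array weights). The V-ATPase median, over all 17 genes, stayed negative throughout, at -0.23 in the main fit. It ran from -0.34 (without knockout 3) to -0.15 (without knockout 1) when 1 library was left out. The median of all tested genes moved too, from -0.099 without control 1 to 0.076 without control 3. The median of all members ran from -0.20 without knockout 3 to -0.0024 without control 3. The count of all genes past the threshold was 9 as reported, 23 with array weights, 6 to 13 when 1 library was left out, and 6 with the replicate number as a replicate block, in which no member passed either. Replicate numbers gave no sign of pairing: deviations of same-numbered libraries correlated at -0.12, -0.085 and -0.034. Those of differently numbered libraries correlated at -0.040 to 0.097. With 3 libraries a group such values cannot settle whether same-numbered libraries were handled together. Over 18 members, 266 of 284 recomputed differences kept their sign and 18 did not, none past the threshold, and the cause was not tested. Filter changes, dropping the variance trend and the replicate block leave each difference as it was. In those settings the sign could not change, and the 266 count them too. With array weights Atp6ap1 read -0.00084, Atp6ap2 -0.031 and Atp13a3 0.039. With 1 library left out, sign changes gave these ranges: Atp1b2 from -0.058 to 0.19, Atp1b3 from -0.069 to 0.36, Atp2a2 from -0.13 to 0.072, Atp2c1 from -0.048 to 0.24, Atp6v1a from -0.20 to 0.15, Atp6ap1 from -0.063 to 0.17, Atp6ap2 from -0.11 to 0.36, Atp7a from -0.092 to 0.12, Atp11a from -0.39 to 0.027 and Atp13a3 from -0.18 to 0.058. With unknown depth and 3 libraries a group, differences inside the intervals given could not be shown. The intervals were not adjusted for the number of genes, so larger differences could also fail the threshold.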
